A study of Homo sapiens with 6 samples.

Results

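The 10 claudin genes CLDN1, CLDN2, CLDN3, CLDN4, CLDN7, CLDN8, CLDN9, CLDN11, CLDN12 and CLDN16 were followed in MDA-MB231, an established human cell line derived from metastatic breast cancer, among 18417 genes measured by name. They were chosen by name as claudins of breast epithelium: a probe set counted if the platform's annotation gave that gene and no other, and each of the 10 had exactly 1 such probe set. Total RNA of 3 samples of parental cells, labelled as controls without treatment, and of 3 samples of a clone stably depleted of G9a (1 clone in all) was hybridised to single-colour arrays. All 6 samples were grown in DMEM/F12 with 10% FBS and harvested in logarithmic growth. Since a clone was set against its parental cells, cloning and the knockdown cannot be told apart. G9a is a histone methyltransferase, encoded by EHMT2, that methylates histone H3 at silenced genes. The comparison asks how the claudin genes differ between the clone and the parental cells.

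Claudins are small membrane proteins that join into strands at the tight junction and seal the space between neighbouring epithelial cells or form selective pores through it. Their tails bind scaffold proteins such as ZO-1, the product of TJP1. In breast cancer the claudin-low tumours and cell lines, to which this line is assigned, are known for low claudin 3, claudin 4 and claudin 7 together with mesenchymal traits. Repressors of the Snail and ZEB families are known to bind E-box sequences in claudin promoters.

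Promoter sequences show how unlike the regulatory starts of these genes are. RefSeq windows on GRCh38.p14, each of 300 bases with 250 before the start and 50 after it, were matched by symbol for 8 of the 10 genes, in 12 windows. The windows of the genes whose arrays lay apart by group and had a match (CLDN1, CLDN12 and CLDN4) are printed here with those of CLDN3 and CLDN7, the other classical claudin-low genes. Capitals mark the Snail and ZEB type E-box CAGGTG on either strand, so that it also appears as CACCTG. Each is read 5′ to 3′ on the strand given.
CLDN1, chr3:190322397-190322696, minus strand: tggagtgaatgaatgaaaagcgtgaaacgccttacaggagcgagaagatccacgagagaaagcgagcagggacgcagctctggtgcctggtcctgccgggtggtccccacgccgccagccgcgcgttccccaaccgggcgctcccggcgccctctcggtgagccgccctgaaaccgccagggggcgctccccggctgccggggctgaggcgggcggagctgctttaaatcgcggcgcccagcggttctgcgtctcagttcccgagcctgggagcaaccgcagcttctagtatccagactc
CLDN12, chr7:90403211-90403510, plus strand: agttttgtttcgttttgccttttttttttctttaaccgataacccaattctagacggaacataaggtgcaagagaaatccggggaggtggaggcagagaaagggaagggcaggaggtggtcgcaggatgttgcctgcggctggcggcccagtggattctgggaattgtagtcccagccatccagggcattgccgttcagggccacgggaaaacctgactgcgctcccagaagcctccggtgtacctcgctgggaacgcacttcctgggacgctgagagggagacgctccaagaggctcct
CLDN4, chr7:73830746-73831045, plus strand: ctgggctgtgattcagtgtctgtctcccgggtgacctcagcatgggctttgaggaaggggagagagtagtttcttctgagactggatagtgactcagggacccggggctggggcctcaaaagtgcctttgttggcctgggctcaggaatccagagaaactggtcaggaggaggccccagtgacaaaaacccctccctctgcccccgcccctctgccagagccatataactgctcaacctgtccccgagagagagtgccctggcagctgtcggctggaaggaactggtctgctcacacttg
CLDN3, chr7:73770221-73770520, minus strand: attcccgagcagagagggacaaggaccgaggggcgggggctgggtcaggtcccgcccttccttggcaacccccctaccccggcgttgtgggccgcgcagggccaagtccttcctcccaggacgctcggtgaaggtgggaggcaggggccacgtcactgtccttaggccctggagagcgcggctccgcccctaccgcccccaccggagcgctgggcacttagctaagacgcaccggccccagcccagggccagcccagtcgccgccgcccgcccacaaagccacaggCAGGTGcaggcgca
CLDN7, chr17:7262429-7262728, minus strand: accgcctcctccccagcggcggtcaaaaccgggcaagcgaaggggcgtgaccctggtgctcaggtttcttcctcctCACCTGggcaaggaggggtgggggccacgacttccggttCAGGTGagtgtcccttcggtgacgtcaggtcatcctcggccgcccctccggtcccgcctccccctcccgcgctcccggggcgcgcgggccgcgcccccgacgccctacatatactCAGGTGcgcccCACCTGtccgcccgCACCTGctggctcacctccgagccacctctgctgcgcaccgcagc

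The E-box occurred 5 times in this CLDN7 window, 1 time in the CLDN3 window and 1 time in a window of CLDN16, and was not found in the other 9 windows. It occurred in 20.6% of all 35116 promoter windows of this length. The other CLDN7 window listed by RefSeq held none. CpG pairs, the sites of DNA methylation, numbered 31 in the CLDN1 window, 24 in CLDN3, 30 in the printed CLDN7 window, 15 in CLDN12 and 5 in CLDN4, against a median of 14 over all windows. The GC box GGGCGG, or CCGCCC on the other strand, was found 6 times in CLDN3, 2 times each in CLDN1 and the printed CLDN7 window, 1 time in CLDN4 and not in CLDN12, and 45.0% of all windows held it. A match describes the letters of the window and was not tested as a binding site.

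The knockdown was visible in its target. EHMT2 read 10.21, 10.27 and 9.93 on the control arrays and 9.66, 9.59 and 9.51 on the knockdown arrays (log2 values), so the groups did not overlap. EHMT2 fell by 0.55 ± 0.10 on the log2 scale (SE, limma, adjusted p = 0.0259). The adjusted p lay between 0.0716 and 0.122 without any 1 of the other arrays, and was 0.0101 without control replicate 3. The call was also lost when every probe set was tested rather than 1 per gene (limma, adjusted p = 0.0957). Differences throughout are log2 differences, knockdown minus control, ± limma's standard error (n = 3 arrays per group), and intervals are 95% intervals. The labels do not say whether the replicates were separate cultures, and the p-values therefore reflect the spread among these samples alone, which may be technical. Control replicate 3 and knockdown replicate 1 had the lowest array weights, 0.273 and 0.413, against 0.873 to 4.83 for the other 4 arrays.

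None of the 10 claudins passed the test at an adjusted p of 0.05. The largest differences were negative, for CLDN1 (-0.47) and CLDN12 (-0.35), and the other 8 genes had positive differences of 0.02 to 0.18. Over all 18417 genes 3.05% passed, 1.28% as rises and 1.78% as falls. An unadjusted p under 0.05 was reached by 3 of the 10 claudins (CLDN1, CLDN12 and CLDN4), beside 19.4% of all genes. With array weights, and likewise with a variance trend, 2 of the 10 passed, CLDN1 and CLDN12, where 18.1% and 5.88% of all genes passed. The median difference of the 10 was 0.05, beside 0.03 over all genes tested, and it was -0.0028 without control replicate 1.

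**Figure D1:**
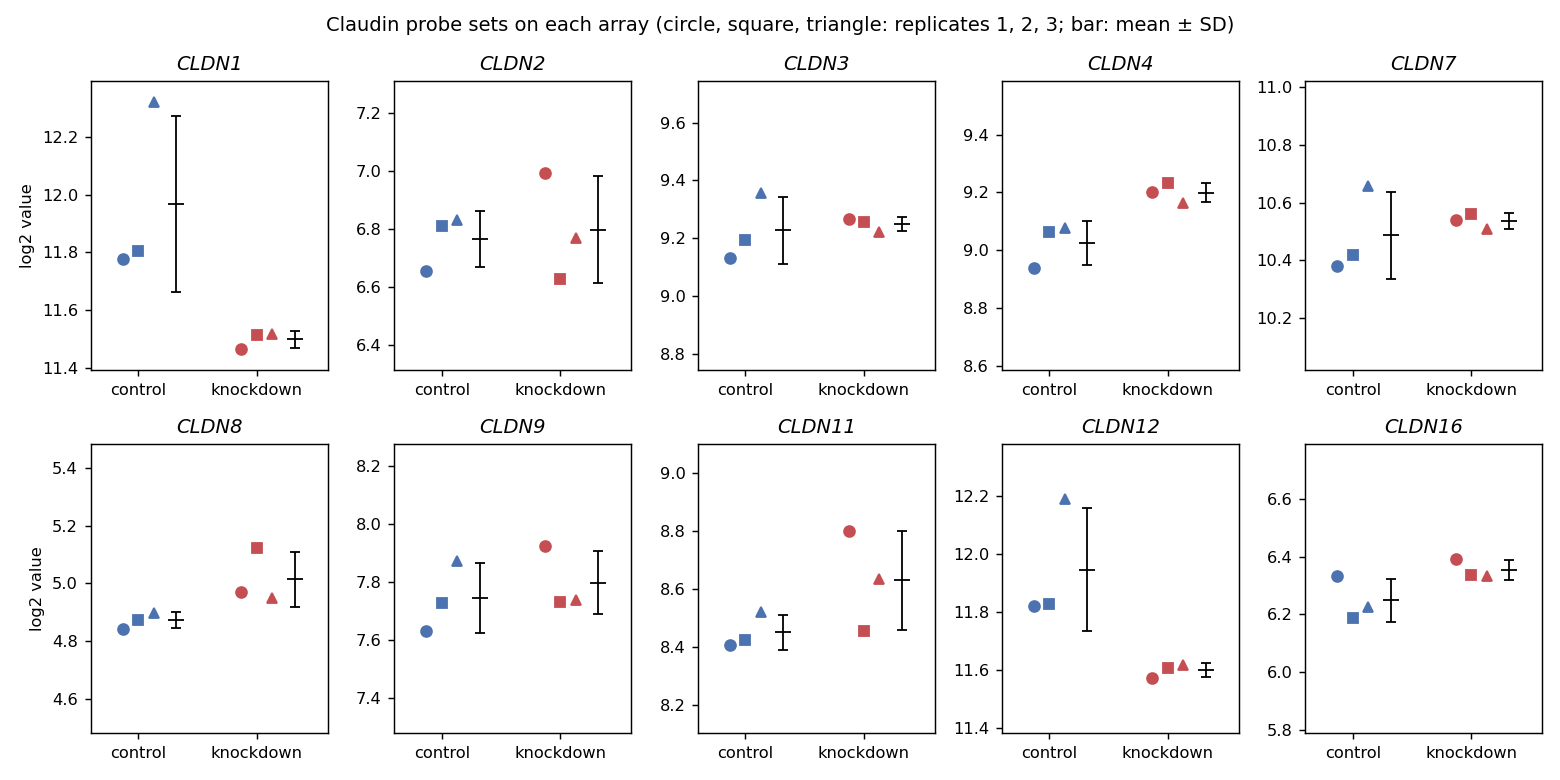
Log2 value of each claudin's probe set (vertical axis, every panel 1 log2 unit high) on the 3 control and 3 knockdown arrays, with the mean ± SD of each group as a bar. CLDN1 and CLDN12 lie lower on every knockdown array than on any control array, with control replicate 3 (triangle) well above the other controls, and CLDN4 and CLDN8 lie higher.

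Probe sets differ in brightness for reasons of their own, and no detection call was used, so levels are not ranked between claudins and the claudin-low assignment could not be examined on these arrays. CLDN2, CLDN8 and CLDN16 lay in the dimmest tercile of genes by mean log2 value, which an alternative analysis left out, and the other 7 lay above it. Most genes lie above that tercile by definition, so the marker counts that follow do not examine the assignment either. Of markers of claudin-low or mesenchymal breast lines, 8 of 8, including VIM and CD44, lay above it. Of 8 measured epithelial carcinoma markers 6 did, among them the keratin genes KRT8 and KRT18, while CDH1 and GRHL2 did not. Of these 8, CDH1 and the transmembrane mucin gene MUC1 (0.39, limma adjusted p = 0.0354) rose, none fell and 6 did not pass. Over all genes 3.05% passed. Among the 6, the keratin gene KRT19 was at -0.38 (limma, adjusted p = 0.08) with its groups apart. With 1 array left out, MUC1 passed only without control replicate 3 (adjusted p from 0.0645 to 0.133 in the other 5 fits). It did not pass with every probe set tested (limma, adjusted p = 0.11).

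Claudin 1 is a sealing claudin and the main barrier-forming claudin of skin. Its gene read 11.78, 11.81 and 12.32 on the control arrays and 11.47, 11.51 and 11.52 on the knockdown arrays. All knockdown arrays lay below all control arrays, and control replicate 3 stood well above the other controls. The means were 11.97 ± 0.30 and 11.50 ± 0.03 (SD), a difference of -0.47 ± 0.13 (interval -0.78 to -0.16), or 0.722 of the control level, with an adjusted p of 0.107 in limma. A difference of this size or larger was seen in 1.79% of all genes. Without control replicate 3 it was -0.29 with an adjusted p of 0.0471, and without any other array it lay between -0.56 and -0.45 with adjusted p from 0.105 to 0.269. Without control replicate 3 and knockdown replicate 1 it was -0.28 (adjusted p = 0.0674).

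Claudin 12 is an atypical claudin that lacks the tail motif by which most claudins bind scaffold proteins. CLDN12 read 11.82, 11.83 and 12.19 on the control arrays and 11.57, 11.61 and 11.62 on the knockdown arrays. The order of the arrays resembled that of CLDN1: the knockdown arrays were lowest and close together, and control replicate 3 was highest. The difference was -0.35 ± 0.10 (interval -0.58 to -0.11; limma, adjusted p = 0.112), which is 0.786 of the control level. At least this size was seen in 4.14% of all genes. The difference was -0.23 without control replicate 3 (adjusted p = 0.0814) and -0.41 without control replicate 1.

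The 3 claudins that define the claudin-low type had differences near or above 0, and none passed. CLDN4, whose product is a sealing claudin and a receptor for a clostridial toxin, read 8.94, 9.06 and 9.08 in control and 9.20, 9.23 and 9.16 in the knockdown. All knockdown arrays were above all control arrays, and the difference was 0.17 ± 0.06 (interval 0.03 to 0.32; limma, adjusted p = 0.186), or 1.13-fold. With 1 array left out it ranged from 0.13 to 0.20.

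CLDN3, a close relative of CLDN4 that also binds the toxin, read 9.13, 9.19 and 9.36 in control and 9.27, 9.26 and 9.22 in the knockdown. The knockdown arrays lay inside the range of the controls, with a difference of 0.02 ± 0.07 (interval -0.14 to 0.19; limma, adjusted p = 0.899), and the sign turned without control replicate 1 (-0.026). CLDN7, a claudin of the lateral membrane as well as the tight junction, read 10.38, 10.42 and 10.66 in control and 10.54, 10.56 and 10.51 in the knockdown. Its groups overlapped too, and the difference was 0.05 ± 0.08 (interval -0.14 to 0.24; limma, adjusted p = 0.783), which was -0.0025 without control replicate 1 and 0.14 without control replicate 3. Neither interval reached a difference of the size seen in CLDN1 on either side of 0.

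Among the claudins best known from other tissues none passed. CLDN2, which forms a cation pore in leaky epithelia, read 6.65, 6.81 and 6.83 in control and 7.00, 6.63 and 6.77 in the knockdown. Both the highest and the lowest of these 6 values came from knockdown arrays, and the difference was 0.03 ± 0.10 (interval -0.20 to 0.26). It turned negative after quantile normalization (-0.0006) and with array weights (-0.023), and ranged from -0.066 without knockdown replicate 1 to 0.12 without knockdown replicate 2. CLDN16, known for paracellular magnesium transport in the kidney, read 6.33, 6.19 and 6.23 in control and 6.39, 6.34 and 6.33 in the knockdown. Its groups overlapped only in the order of control replicate 1 (6.3318) and knockdown replicate 3 (6.3315), with a difference of 0.10 ± 0.06 (limma, adjusted p = 0.409).

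CLDN8, a claudin of the distal nephron, read 4.84, 4.87 and 4.90 in control and 4.97, 5.12 and 4.95 in the knockdown. The groups lay apart with the knockdown higher, by 0.14 ± 0.07 (interval -0.01 to 0.30; limma, adjusted p = 0.293), and the difference was 0.088 without knockdown replicate 2. CLDN11, the claudin of myelin and of Sertoli cell junctions, read 8.41, 8.42 and 8.52 in control and 8.80, 8.46 and 8.64 in the knockdown. Knockdown replicate 2 lay among the controls, the difference was 0.18 ± 0.09 (interval -0.03 to 0.39; limma, adjusted p = 0.326), and it was 0.096 without knockdown replicate 1 and 0.27 without knockdown replicate 2. CLDN9, known from the inner ear, read 7.63, 7.73 and 7.87 in control and 7.92, 7.73 and 7.74 in the knockdown. The groups overlapped and the difference of 0.05 ± 0.09 (limma, adjusted p = 0.778) turned to -0.0031 without control replicate 1 and -0.01 without knockdown replicate 1.

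**Figure D2:**
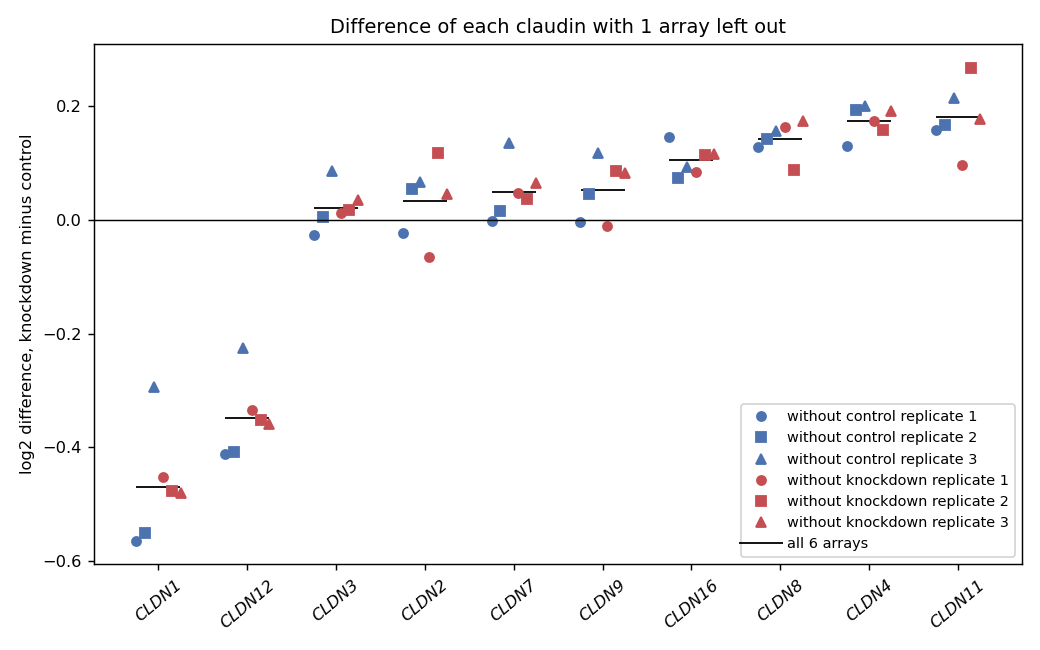
Log2 difference (vertical axis) of each of the 10 claudins with all 6 arrays (black line) and with 1 array left out (points; blue for a control array, red for a knockdown array). CLDN1 and CLDN12 stay below 0 in every fit and lie nearest to it, at -0.29 and -0.23, without control replicate 3, while CLDN2, CLDN3, CLDN7 and CLDN9 cross 0.

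Across the 10 genes the groups did not overlap in 4, with the knockdown lower in CLDN1 and CLDN12 and higher in CLDN4 and CLDN8. Over all genes 27.0% lay apart, 12.7% with the knockdown lower and 14.3% with the knockdown higher. Control replicate 3 was the highest control array for 9 of the 10 claudins, with CLDN16 the exception, against 42.6% of all genes. Control replicate 1 was the lowest for the same 9, a pattern whose share over all genes was not computed. The part of either array in the claudin differences was not tested beyond leaving it out. The 95% intervals of 9 claudins lay within a 1.5-fold change either way, and that of CLDN1 reached beyond it on the negative side. Among the 9, CLDN12 lay only just inside, with a lower bound of -0.58, and CLDN2, CLDN8 and CLDN16 were in the dimmest tercile.

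CLDN1 and CLDN12 had like profiles over the 6 arrays. By Euclidean distance between log2 profiles, each centred on its own mean, the 5 genes nearest to CLDN1 among all genes were KISS1 (distance 0.057), which encodes kisspeptin, SEC24D (0.082), a coat protein gene of vesicle transport, INHBA (0.087), which encodes an activin subunit, LRRC2 (0.104) and VLDLR (0.110), a lipoprotein receptor gene. Their differences were -0.46, -0.42, -0.53, -0.45 and -0.48, and none of the 5 passed the test (limma, adjusted p from 0.08 to 0.119). CLDN12 ranked 41 among all genes (distance 0.197), and the next claudin, CLDN3, ranked 4039 (0.664). This likeness describes 6 arrays, on which control replicate 3 was the highest value for each of these genes.

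Some of the claudin genes neighbour each other in the RefSeq gene order. CLDN1 and CLDN16 are next to each other, and the start of CLDN1 lies on the minus strand between the 2 starts listed for CLDN16 on the plus strand, in windows chr3:190290111-190290410 and chr3:190387913-190388212. The labelled strand is not given in the sources used here, so signal of overlapping transcripts might not be separated. CLDN16 was at 0.10 where CLDN1 was at -0.47, and the nearest measured genes on either side of the pair were TPRG1 (0.10), P3H2, a collagen hydroxylase gene (0.14), TMEM207 (0.01) and IL1RAP, a subunit gene of the interleukin-1 receptor (-0.16), none of which passed (limma, adjusted p from 0.27 to 0.948).

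CLDN3 and CLDN4 are the other adjacent pair, at 0.02 and 0.17. Around them STX1A, a syntaxin gene, was at 0.18, ABHD11 at 0.10, METTL27 at 0.18 and TMEM270 at 0.28. These neighbours did not pass either (limma, adjusted p from 0.149 to 0.646). In STX1A, METTL27 and TMEM270 every knockdown array lay above every control array, as in CLDN4 and in 14.3% of all genes. The groups overlapped in CLDN3 and ABHD11. Around CLDN1 and CLDN16 the groups lay apart in P3H2, with the knockdown higher, and in IL1RAP, with the knockdown lower.

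CLDN10 rose, and was the only 1 of 13 other measured claudin family genes to pass. Claudin 10 forms ion-selective paracellular channels. The probe set, which lay in the dimmest tercile, read 5.60, 5.82 and 5.76 in control and 6.19, 6.14 and 6.22 in the knockdown, so the groups lay well apart. The difference was 0.46 ± 0.07 (limma, adjusted p = 0.0195), or 1.37-fold. It kept its sign in every fit with 1 array left out, but the call was lost when control replicate 1 (adjusted p = 0.0535) or knockdown replicate 1, 2 or 3 (0.0741, 0.0545 and 0.104) was the array omitted. Over the 13 genes 11 differences were positive and 2 negative, with a median of 0.08. Over all genes 59.6% of differences were positive, with a median of 0.031 (0.017 with the dimmest tercile left out). That tercile held 9 of the 13 genes, CLDN10 among them. CLDN25 was not measured singly.

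**Figure D3:**
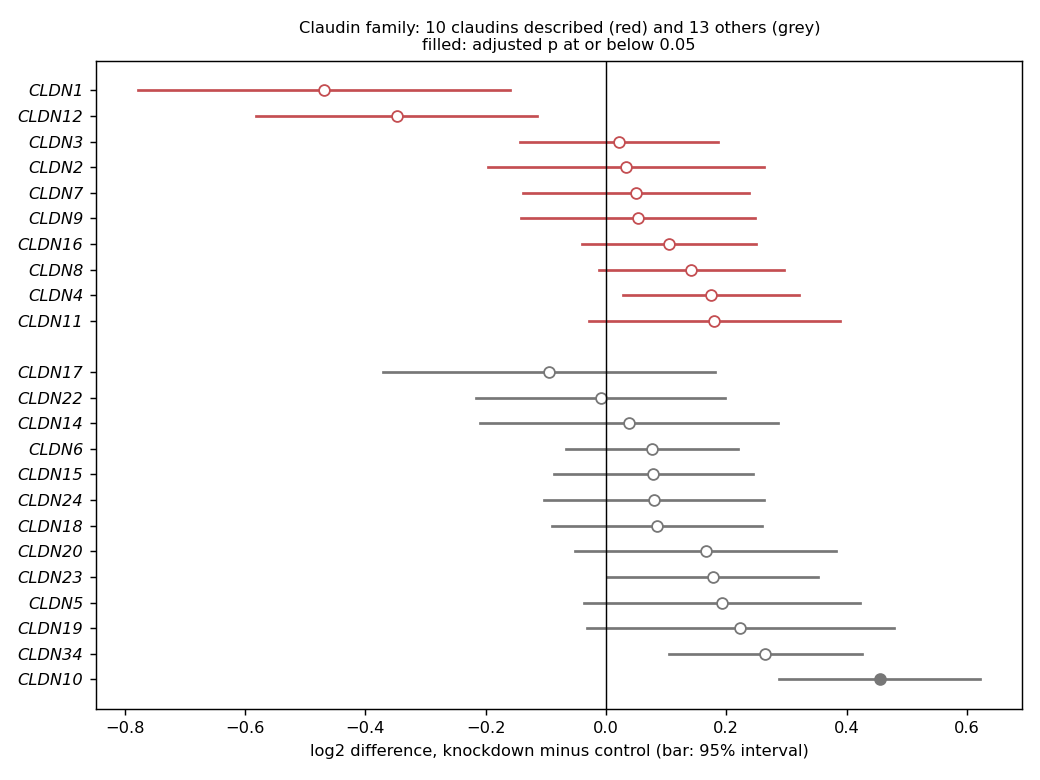
Log2 difference, knockdown minus control (horizontal axis), with its 95% interval for the 10 claudins described (red) and the 13 other measured family members (grey). CLDN10, at 0.46, has the only filled point, and CLDN1 and CLDN12 lie farthest to the negative side.

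No tight junction partner passed. Of 30 genes for scaffold, polarity and other junction proteins 25 were measured singly, 0 rose and 0 fell in limma, and 5 had an unadjusted p under 0.05, 4 of them lower, beside 19.4% of all genes. With array weights 1 rose and 7 fell, beside 18.1% of all genes called, and with a variance trend 2 fell, beside 5.88%. The median difference was -0.0067, beside 0.03 over all genes. TJP1, the ZO-1 scaffold gene, was at 0.02 ± 0.06 and turned to -0.0008 after median centring. The largest differences were those of the polarity genes PARD6B (-0.28 ± 0.06; limma, adjusted p = 0.0587), PARD3 (-0.22 ± 0.06, adjusted p = 0.0862) and PALS1 (-0.20 ± 0.07, adjusted p = 0.168). PARD6B read 10.50, 10.39 and 10.53 in control and 10.23, 10.19 and 10.17 in the knockdown, and the groups did not overlap. They lay apart in 5 of the 25 genes, all with the knockdown lower. Over all genes 12.7% lay apart with the knockdown lower and 14.3% with it higher. OCLN, which encodes occludin, had no probe set of its own and was not tested by name.

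Regulators of claudin and epithelial genes moved both ways. ELF3 and EHF encode epithelial transcription factors of the ETS family, and ESRP2 an epithelial splicing factor. ELF3 rose by 0.38 ± 0.08 (limma, adjusted p = 0.0498) and ESRP2 by 0.30 ± 0.06 (0.0453), while EHF fell by 0.63 ± 0.12 (0.0385). EHF read 11.37, 11.41 and 11.82 in control and 10.77, 10.95 and 11.0033 in the knockdown, so control replicate 3 was again the highest. Of 18 measured regulators 2 rose, 1 fell and 15 did not pass, beside 1.28% of all genes that rose and 1.78% that fell, and the median was 0.02. The 3 calls depended on the arrays used: without control replicate 1, control replicate 2, or any 1 knockdown array none of the 18 passed, and without control replicate 3 the count was 3. ELF3 missed the threshold after quantile normalization (adjusted p = 0.0608), and both ELF3 and ESRP2 missed it after median centring (0.0583 and 0.0705).

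The E-box repressors SNAI2, ZEB1 and SNAI1 did not pass. SNAI2, which encodes Slug, was at 0.27 ± 0.09 (limma, adjusted p = 0.133), ZEB1 at -0.21 ± 0.06 (0.128) and SNAI1 at -0.11 ± 0.08 (0.451). SNAI2 read 12.59, 12.45 and 12.28 in control and 12.70, 12.76 and 12.67 in the knockdown, and ZEB1 read 10.83, 10.81 and 10.96 against 10.67, 10.64 and 10.67. In both genes the groups did not overlap, with SNAI2 higher and ZEB1 lower in the knockdown. SNAI2 passed with a variance trend (adjusted p = 0.0483) and array weights (0.0285), ZEB1 passed with array weights (0.0437), and SNAI1 was at -0.04 without knockdown replicate 3. CDH1, which encodes E-cadherin of the neighbouring adherens junction, rose by 0.45 ± 0.07 (limma, adjusted p = 0.0177). That call was lost with every probe set tested (0.0699) and in the 5 fits that left out an array other than control replicate 3 (adjusted p from 0.0525 to 0.0983).

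**Figure D4:**
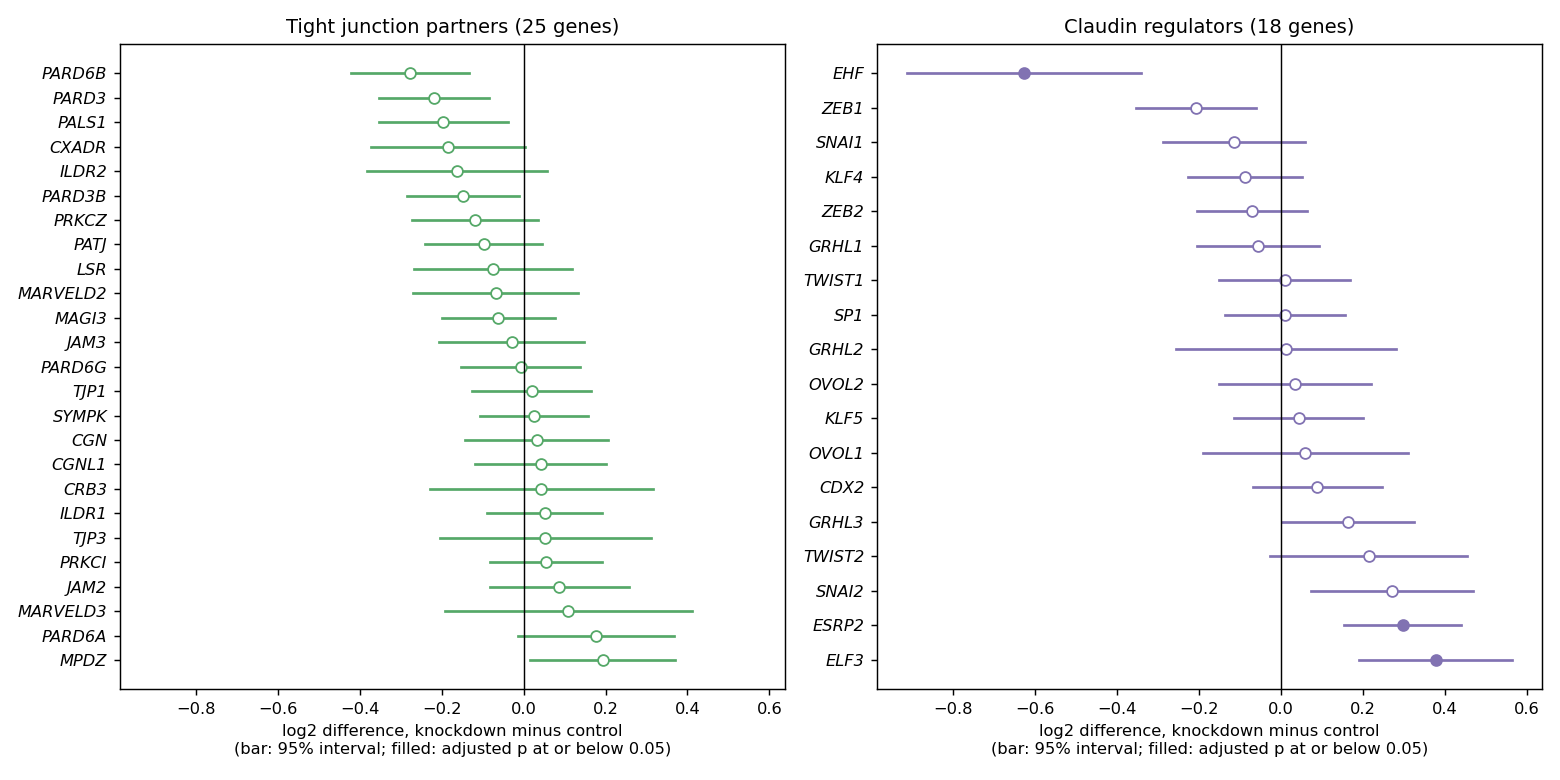
Log2 difference, knockdown minus control (horizontal axis), with its 95% interval for 25 tight junction partner genes and 18 regulators. Filled points passed the test: EHF at -0.63, ESRP2 at 0.30 and ELF3 at 0.38.

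Markers of other cell types were read beside the claudins. Of 6 leukocyte and blood markers none passed, and their summed log2 level was 43.6 to 44.0 in control and 43.6 to 44.4 in the knockdown. Of 6 fibroblast markers LUM fell (summed level 41.7 to 43.3 in control, 41.4 to 41.6 in the knockdown). That sum includes LUM at -1.31, while the 6 differences were 3 positive and 3 negative with a median of 0.06. Of 6 endothelial markers CDH5 rose and KDR fell (summed level 44.6 to 45.8 in control, 45.4 to 46.3 in the knockdown). PECAM1, another of these 6, was at 0.42 with its groups apart (limma, adjusted p = 0.0591). Over all genes 3.05% passed. LUM and KDR passed in all 6 fits with 1 array left out, although the LUM probe set lay in the dimmest tercile. CDH5 missed the threshold without control replicate 2 or any 1 knockdown array (limma, adjusted p from 0.0615 to 0.0869), and with every probe set tested (0.0887). The part of these markers in the claudin differences was not tested.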

How the data were processed

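Per the labels' protocols, biotin-labelled total RNA of 6 samples was hybridised to single-colour arrays. The deposited values, 2.13 to 14.76, were taken as log2 intensities already summarised and scaled by the authors, from their range and close array medians (7.79 to 7.86). The log base, software, scaling, probe strand and genome build are not given in the sources available. Arrays have no depth, and their number limits the precision.

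Of 33297 probe sets, 19460 had 1 gene symbol in the platform's annotation, 1754 several and 12083 none. Symbols were updated by Entrez number through RefSeq (19429 matched), and the probe set with the highest mean stood for each of 18417 genes. Groups came from the titles. Knockdown was compared with control in limma 3.58.1 (R 4.3.3; lmFit, eBayes, no covariate, two-sided, 4 residual degrees of freedom before moderation), with Benjamini-Hochberg adjustment over all 18417 genes. The procedure was also run on simulated data with independent normal noise and no outlying array. There 95% of log2 changes of 0.5 and 100% of those of 1 were recovered. Since no outlying array was simulated, that run cannot show how often such changes are missed on these arrays. The claudins, the gene lists and the settings were chosen with earlier results of these data known.

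Always named were EHMT2, the 10 claudins, CDH1, SNAI1, SNAI2, ZEB1, TJP1 and OCLN. Each list added its passing members, up to 8, or otherwise its 3 largest differences. The 5 genes most like the claudin with the largest difference, and 2 measured genes on either side of it and of adjacent claudins, were named too. MUC1, KRT19, LUM, CDH5, KDR, PECAM1, VIM, CD44, KRT8, KRT18 and GRHL2 were named after their values were seen. Alternatives were quantile normalization, median centring, leaving out the dimmest tercile of genes, every probe set, the mean of probe sets, a variance trend, array weights, a replicate block and each array left out. The labels do not say whether same-numbered arrays were pairs, and the main fit did not treat them as such. Their deviations from the group means correlated at -0.246, 0.122 and 0.0877. With 3 arrays per group, these values cannot decide whether they were paired.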

Additional observations from a re-analysis of the deposited data

How the results depend on the processing

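Of 147 differences of the 10 claudins under 15 alternatives, 133 kept their sign and their side of the threshold, 5 passed where they had not, and 9 changed sign. Omitting the dimmest tercile gave no value for CLDN2, CLDN8 and CLDN16. CLDN1 and CLDN12 passed with a variance trend (-0.47 and -0.35; adjusted p = 0.0457 and 0.0453) and with array weights (-0.31 and -0.23; 0.024 and 0.0304), so 2 claudins were called in each, and CLDN1 passed without control replicate 3. With 1 array left out, 0 to 1 claudins were called, CLDN1 ranged from -0.56 to -0.29 and CLDN12 from -0.41 to -0.23. CLDN2 was at -0.0006 after quantile normalization, -0.023 with array weights, -0.032 without control replicate 3 and knockdown replicate 1 (a setting chosen after seeing the data, where CLDN1 was at -0.28), and -0.066 to 0.12 with 1 array left out. CLDN3 ranged from -0.026 to 0.086, CLDN7 from -0.0025 to 0.14, CLDN9 from -0.0102 to 0.12, the median of the 10 claudins from -0.0028 to 0.11, and TJP1, at -0.0008 after median centring, from -0.0096 to 0.058.

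Over all genes, 562 passed with 6 arrays and 44 to 535 with 1 left out, 343 without both arrays named above, 972 when the dimmest tercile was omitted, 1083 with a variance trend, 3328 with array weights and 47 with every probe set tested. Other claudins called numbered 1 with 6 arrays, 0 to 1 with 1 array left out, 4 with array weights, and 0 with every probe set tested, without the dimmest tercile (which holds CLDN10) or without both arrays. Tight junction partners called numbered 0, with 0 and 0 as the bounds over single arrays left out, 1 after median centring, 2 without the dimmest tercile, 2 with a variance trend and 8 with array weights. Regulators called numbered 3, with 0 to 3 over single arrays left out, 1 after median centring, 1 without both arrays, 0 with every probe set tested and 7 with array weights. The cause of these changes was not tested.

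The replicate number was also fitted as a block, although the labels do not say whether the numbers pair the samples. With it, 217 genes, 0 of the 10 claudins, 0 other claudins, 0 tight junction partners and 1 regulator passed. CLDN1 kept -0.47 (adjusted p = 0.11), and CLDN10 was at 0.46 (adjusted p = 0.0557). Signal over background was not available to separate dim values. This limits CLDN2, CLDN8 and CLDN16 most, with the 9 other claudins in the dimmest tercile, CLDN10 included.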
